A study of Mus musculus with 12 samples.

Results

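Flg, Padi1, Padi4 and Tgm6 encode a structural protein of the cornified layer and 3 enzymes that modify arginine or glutamine side chains in proteins. They were chosen by symbol and are 4 of the 7902 genes with deposited values from bulk RNA sequencing of mouse skin. The 12 libraries came from 3 groups of 4. M+NSPCC1 was skin of the ageing model given the grape seed extract NSPCC1, Model was skin of mice aged with D-galactose and UVA and UVB light, and Ctrl was control skin. M+NSPCC1 and Model therefore share the D-galactose and the irradiation, and Ctrl is described only as control. The sources used here gave no strain, age, sex, body site, dose or time. Whether the 4 samples of a group were 4 mice was not stated, and the p-values then reflect sample-to-sample spread alone, which could be technical.

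Filaggrin is made as a long precursor, profilaggrin, which is stored in granules of the upper epidermis and cut into units that bundle keratin filaments. Peptidylarginine deiminases, encoded by the Padi genes, turn arginine into citrulline, which loosens filaggrin from keratin before it is broken down to small hygroscopic molecules. Transglutaminases, encoded by the Tgm genes, join glutamine to lysine and so cross-link the proteins of the cornified envelope. In the hair follicle the same kinds of enzyme harden trichohyalin, a relative of filaggrin, in the inner root sheath and the medulla. Padi1 is known mainly from the epidermis, Padi4 from granulocytes, where it acts on histones, and Tgm6 from the nervous system in humans.

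The 4 genes lie at 3 loci of mm10. Flg (gene ID 14246) spans chr3:93273546-93293689, in a run of 327 kb that holds the S100 fused-type genes Crnn, Flg2, Flg, Rptn, Tchh and Tchhl1. Padi1 (18599) spans chr4:140812981-140845778 and Padi4 (18602) chr4:140745508-140774239, with Padi3 between them and Padi2 on the far side of Padi1. Tgm6 (241636) spans chr2:130112416-130154233, beside Tgm3. The windows printed here run from 150 to 21 bases before a transcript start in RefSeq's promoter table, on the gene's own strand, on GRCm38.p6, the assembly called mm10. For Flg, Padi1 and Tgm6 that start is the 5′ end of the span given above. For Padi4 it lies 36 bases inside the span, so that 16 bases of the window fall within the gene, and for Padi2, which begins at 140906336, it lies 24 bases inside and 4 bases of the window do. They are shown because these genes moved by very different amounts, and capitals mark matches, on either strand, to any of 5 motifs searched, with the windows given in the order Flg, Padi1, Padi4, Tgm6 and then Padi2, the deiminase that moved the other way.
Flg, chr3:93273396-93273525, plus strand: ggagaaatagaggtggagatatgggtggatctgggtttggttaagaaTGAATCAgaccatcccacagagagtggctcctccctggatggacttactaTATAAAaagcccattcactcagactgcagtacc
Padi1, chr4:140845799-140845928, minus strand: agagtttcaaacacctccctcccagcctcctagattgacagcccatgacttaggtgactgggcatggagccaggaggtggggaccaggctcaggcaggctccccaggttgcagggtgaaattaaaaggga
Padi4, chr4:140774224-140774353, minus strand: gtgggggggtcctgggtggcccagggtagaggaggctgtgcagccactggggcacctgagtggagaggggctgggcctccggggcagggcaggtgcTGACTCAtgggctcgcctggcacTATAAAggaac
Tgm6, chr2:130112266-130112395, plus strand: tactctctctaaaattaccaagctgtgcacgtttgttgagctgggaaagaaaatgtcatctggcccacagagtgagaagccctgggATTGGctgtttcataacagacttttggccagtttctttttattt
Padi2, chr4:140906210-140906339, plus strand: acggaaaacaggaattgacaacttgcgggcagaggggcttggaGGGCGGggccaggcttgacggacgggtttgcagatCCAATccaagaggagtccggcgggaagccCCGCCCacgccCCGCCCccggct

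The Flg window held a TATA box (TATAAA), 53 bases before the start, and an AP-1 site (TGANTCA), 103 bases before it. The Padi4 window held the same pair of motifs, 31 and 54 bases before the start used, and the TATAAA match lies within the gene span given above. Of 32851 RefSeq promoter windows of 130 bases, 6.91% held TATAAA and 3.82% held TGANTCA. The Tgm6 window held a CCAAT box (CCAAT), found in 22.5% of all windows, and the Padi1 window held none of the motifs. RefSeq lists another Tgm6 start 10859 bases inside the gene, whose window (chr2:130123125-130123254, not printed) held none of the motifs, 5 CpG pairs and 53.8% GC. The Padi2 window had 3 GC boxes (GGGCGG, 25.1% of all windows), a CCAAT box and 11 CpG pairs, against 0 CpG pairs in the Flg and Padi1 windows, 2 in Padi4 and 1 in the Tgm6 window printed. GC and CCAAT boxes were not particular to the deiminase that fell. The window of Padi3, which rose in Model against Ctrl, held 1 GC box, 2 CCAAT boxes and 3 CpG pairs (not printed). The last motif searched, CTTTGA, bound by LEF and TCF factors, was in 7.08% of all windows and in none of these windows. GC content was 46.9% for Flg, 56.9% for Padi1, 68.5% for Padi4, 42.3% for the printed Tgm6 window and 66.9% for Padi2, beside a median of 53.8% over all windows. No match overlapped a match to another motif, and a match describes the sequence only.

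Totals of the deposited estimated counts lay between 9717338 and 10952623 a library. Levels are given as FPKM, fragments per kilobase of transcript scaled to library size, as deposited by the authors, or as CPM, library-scaled counts computed from the estimated counts with TMM scaling. Keratins of skin were present in every group: Krt10, of the suprabasal epidermis, had 563 ± 113 FPKM in M+NSPCC1, 466 ± 194 FPKM in Model and 1468 ± 276 FPKM in Ctrl skin. Of 8 basal keratinocyte genes, the 4 in the files summed to 4892 to 7781 CPM in M+NSPCC1, 6120 to 9207 in Model and 3302 to 3816 in Ctrl libraries. That sum was mostly Krt5 and Krt17, which passed as higher in Model against Ctrl, while Itgb4 and Dst passed as lower, at -5.03 and -1.78 on the log2 scale. The Itgb4 value is unsteady, from 0 to 32.29 estimated counts a library in Model. It ran from -11.05 to -4.58 when single libraries were left out. Among the deposited genes, Model and Ctrl differed widely: 90.5% of 7638 tested genes passed an adjusted p of 0.05 by edgeR's quasi-likelihood test. The median log2 fold change of all genes tested was 0.26. How the deposited transcripts were selected was not given, so this share and later ones describe the deposited genes only. Hair shaft genes (20 in the files) summed to 10890 to 22200 CPM in M+NSPCC1, 20220 to 37640 in Model and 24.58 to 82.95 in Ctrl. Skeletal muscle genes (12) summed to 11680 to 17610 CPM in M+NSPCC1, 4785 to 16480 in Model and 84650 to 92560 in Ctrl. In bulk tissue, fewer cells of a type and less RNA per cell cannot be told apart.

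The question of the first comparison was what D-galactose with UV light did to skin. All 4 genes were higher in Model than in Ctrl skin, by 0.48 on the log2 scale for Flg and by at least 11.09 for Tgm6. Each passed edgeR's test as higher, beside 49.1% of all tested genes that did so and 41.4% that passed as lower. Groups did not overlap for Padi1, Padi4 and Tgm6, as for 43.2% of all tested genes in this direction, so neither count sets the genes apart from the rest of the table.

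**Figure D1:**
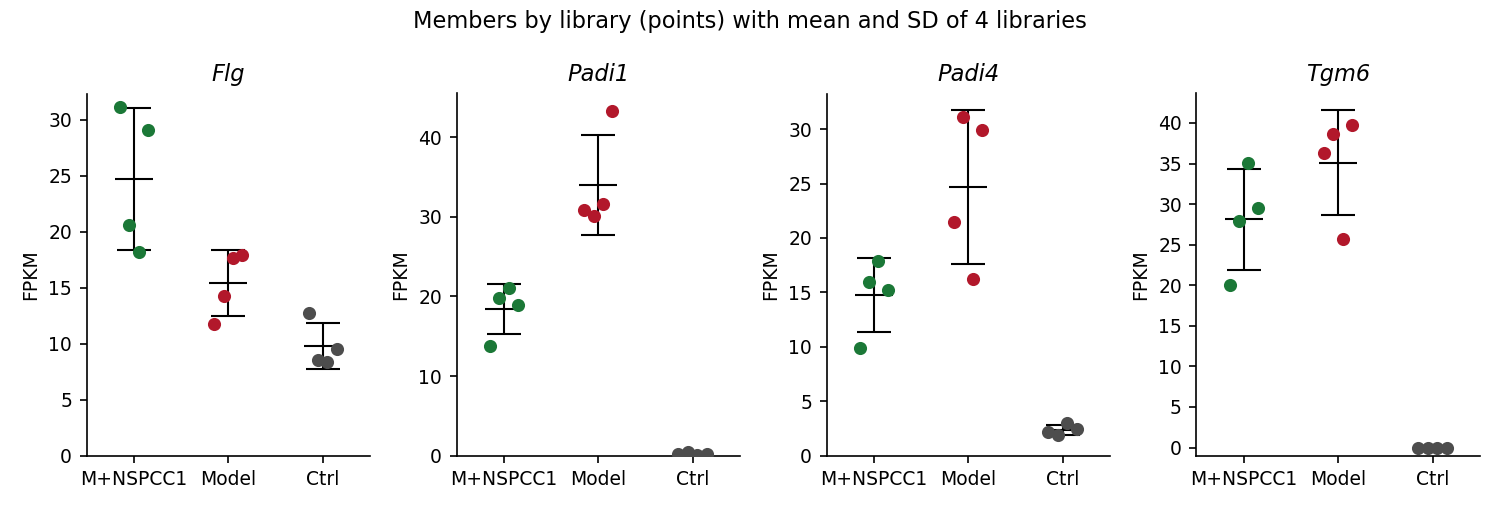
FPKM of Flg, Padi1, Padi4 and Tgm6 (vertical axes, linear) in the 4 libraries of M+NSPCC1, Model and Ctrl skin; points are libraries, horizontal marks are means and bars the SD. Tgm6 lies at 0 in the 4 Ctrl libraries, Padi1 lies between 0.14 and 0.46 FPKM there, and Flg is the gene whose highest group is M+NSPCC1.

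Flg had 31.2, 20.6, 18.2 and 29.1 FPKM in M+NSPCC1 libraries 1 to 4. In Model libraries it had 11.8, 14.3, 17.6 and 17.9 FPKM, and in Ctrl libraries 12.8, 8.57, 8.35 and 9.53 FPKM. Every M+NSPCC1 library was above every Model library, though by little, and a single Ctrl library lay above the lowest Model library. In CPM the M+NSPCC1 and Model ranges did overlap, at 399 to 696 CPM in M+NSPCC1 and 264 to 415 CPM in Model. The log2 fold change of Model over Ctrl was 0.48 (SE 0.21, 95% interval 0.02 to 0.93; adjusted p = 0.046, edgeR quasi-likelihood with Benjamini-Hochberg adjustment). That call was lost with DESeq2's size factors in the edgeR fit, at a log2 fold change of 0.31 and an adjusted p of 0.187, and without Ctrl 2, Ctrl 3, Ctrl 4, Model 3, Model 4 or M+NSPCC1 4, where log2 fold changes of 0.39 to 0.48 had adjusted p of 0.0503 to 0.113. The median of all genes moved by 0.26 in the same direction.

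Padi1, a deiminase known mainly from the epidermis, had 13.8, 19.8, 21.02 and 18.9 FPKM in M+NSPCC1 libraries 1 to 4. The Model libraries had 30.9, 30.1, 31.6 and 43.3 FPKM, and the Ctrl libraries 0.20, 0.46, 0.14 and 0.16 FPKM. The 3 groups stood fully apart, with Model highest and Ctrl near 0. Padi1 averaged 198 ± 33.7 CPM in Model against 1.62 ± 0.996 CPM in Ctrl libraries (SD, n = 4 per group). The log2 fold change was 6.93 (SE 0.30; adjusted p = 1.93e-08, edgeR quasi-likelihood with Benjamini-Hochberg adjustment). Ctrl 2 had 28 counts of Padi1, the most of any Ctrl library, and without it the log2 fold change was 7.45. Both Padi1 transcripts in the table held identical values in each library, so the sum was split evenly between them and says nothing about which isoform was present.

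Padi4, whose product enters the nucleus, had 9.89, 16.0, 17.9 and 15.3 FPKM in M+NSPCC1 libraries 1 to 4. Model libraries had 21.5, 31.1, 16.2 and 29.9 FPKM, and Ctrl libraries 2.22, 1.87, 2.96 and 2.43 FPKM. Ctrl lay below every other library, while Model 3 lay inside the M+NSPCC1 range. The log2 fold change of Model over Ctrl was 3.20 (SE 0.25; adjusted p = 5.43e-07, edgeR quasi-likelihood with Benjamini-Hochberg adjustment), from 97.1 ± 26.7 CPM in Model against 10.6 ± 2.11 CPM in Ctrl libraries (SD, n = 4 per group). A single Padi4 transcript is in the table, and its estimated count was not whole in 9 of 12 libraries, so the value describes that transcript and not all reads of the gene. Of 19 neutrophil genes, the cells best known for Padi4, 5 were in the files, and they summed to 50.5 to 311 CPM in M+NSPCC1, 70.8 to 305 in Model and 103 to 199 in Ctrl skin, with none at 0 in a whole group. Of the 5, 2 passed as higher and 2 as lower in Model against Ctrl, near the 49.1% and 41.4% of all tested genes. The part of neutrophil content in Padi4 was not tested. Camp, an antimicrobial peptide of neutrophil granules, passed as higher in Model at 2.41 on the log2 scale, and the gelatinase Mmp9 as lower at -1.74 (-2.53 without Model 3). The Camp value rests on few counts, 5 to 21 a library in Model and 0 to 4 in Ctrl.

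Tgm6 had 20.01, 27.9, 35.1 and 29.6 FPKM in M+NSPCC1 libraries 1 to 4, and 36.3, 38.6, 25.7 and 39.8 FPKM in Model libraries. Its 3 transcripts in the table had no count in any of the 4 Ctrl libraries, which puts their sum in Ctrl below 0.0818 CPM when 3 counts over the group are taken as the floor. The summed estimated count was not whole in 7 of 12 libraries, so reads shared with sequences outside these 3 transcripts are not covered by the value or by the floor. Against that floor the sum of the 3 transcripts was at least 2170-fold higher in Model and at least 1700-fold higher in M+NSPCC1 skin, with adjusted p of 5.43e-08 and 8.4e-08 (edgeR quasi-likelihood with Benjamini-Hochberg adjustment). Floors of this kind cover counting error only. Model 3, the Model library with the least hair shaft RNA, had the lowest Tgm6 and Padi4 of its group, but Model 2, with the most, had the lowest Padi1 (176.5 CPM, against 191.6 CPM in Model 3). In the same way M+NSPCC1 1, at 10890 CPM the lowest hair shaft sum of its group, had the lowest Padi1, Padi4 and Tgm6 and the highest Flg; the part of follicle content in these levels was not tested.

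Of the 3 Tgm6 transcripts in the table, the third carried most of the signal, with a mean of 83.0% of the estimated count in M+NSPCC1 (76.6% to 89.7%) and 86.8% in Model skin (82.4% to 92.5%). The first held 8.54% in M+NSPCC1 and 5.81% in Model skin, and the second 8.46% in M+NSPCC1 and 7.33% in Model skin. The second had no count in M+NSPCC1 2 and 28.6 in Model 4, so its share was the least steady.

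**Figure D2:**
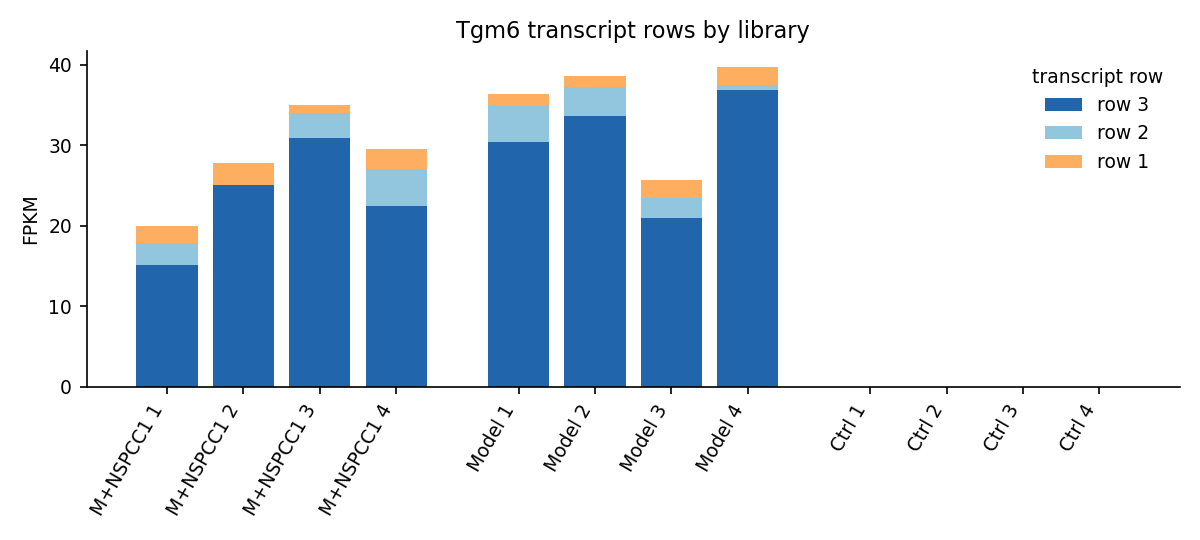
Stacked FPKM of the 3 Tgm6 transcripts (vertical axis, linear) in each library of M+NSPCC1, Model and Ctrl skin. The third transcript makes up the bulk of every bar, and the 4 Ctrl libraries have no bar because no transcript had a count.

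The next comparison asked what the extract did to model skin. Flg was higher in M+NSPCC1 than in Model skin and the 3 enzyme genes were lower, but none of the 4 passed edgeR's test, and neither did any of the 7638 genes tested (0% called; 502 genes, 6.57%, had an unadjusted p under 0.05). Flg averaged 547 ± 141 CPM in M+NSPCC1 and 350.4 ± 70.0 CPM in Model skin (SD, n = 4 per group); the log2 fold change was 0.64 (SE 0.21, 95% interval 0.19 to 1.10; adjusted p = 0.605, edgeR quasi-likelihood with Benjamini-Hochberg adjustment). Padi1 averaged 104 ± 17.3 CPM in M+NSPCC1 and 198 ± 33.7 CPM in Model skin, and the log2 fold change was -0.92 (SE 0.21, 95% interval -1.39 to -0.46; adjusted p = 0.36, same test). Its groups did not overlap, which held for 2.89% of tested genes in this direction. DESeq2's Wald test called Padi1 lower, at an adjusted p of 0.0111, where it called 59 genes (0.775%) lower, 14 (0.184%) higher and 73 (0.959%) in all.

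Padi4 stood at -0.78 on the log2 scale in M+NSPCC1 over Model (SE 0.22, 95% interval -1.27 to -0.29; adjusted p = 0.486, edgeR quasi-likelihood with Benjamini-Hochberg adjustment), from 56.6 ± 12.6 CPM in M+NSPCC1 and 97.1 ± 26.7 CPM in Model skin (SD, n = 4 per group). Tgm6 stood at -0.36 (SE 0.18, 95% interval -0.77 to 0.05; adjusted p = 0.8), from 139 ± 29.3 CPM in M+NSPCC1 and 178 ± 29.5 CPM in Model skin. For both genes the groups overlapped. A p that misses the threshold does not show that M+NSPCC1 and Model were alike: the Padi1 interval runs down to -1.39, and the Flg interval up to 1.10.

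Set against Ctrl, M+NSPCC1 skin was higher for all 4 genes, and this comparison shares its Ctrl libraries with the first and its M+NSPCC1 libraries with the second. All 4 passed as higher, as did 50.1% of tested genes (43.1% passed as lower, and 93.2% in either direction), and all 4 had groups that did not overlap, as did 47.4%. Flg was 547 ± 141 CPM in M+NSPCC1 and 252 ± 51.7 CPM in Ctrl libraries (SD, n = 4 per group); the log2 fold change was 1.12 (SE 0.21, 95% interval 0.66 to 1.58; adjusted p = 0.000386, edgeR quasi-likelihood with Benjamini-Hochberg adjustment). Padi1 stood at 6.01 on the log2 scale (SE 0.30; adjusted p = 5.14e-08) and Padi4 at 2.42 (SE 0.24; adjusted p = 4.02e-06) by the same test. Neighbouring groups whose libraries overlapped in both units were M+NSPCC1 and Model for Padi4 and Tgm6, and Model and Ctrl for Flg. For Flg, M+NSPCC1 and Model overlapped in CPM but not in FPKM.

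The deiminase family changed in make-up as well as in amount. Summed deiminase FPKM was 121 to 198 in M+NSPCC1, 185 to 245 in Model and 14.3 to 22.4 in Ctrl libraries. Padi2, the deiminase of muscle and many other tissues, made up 2.72% of that sum in M+NSPCC1, 1.57% in Model and 83.6% in Ctrl skin. Padi3, the deiminase of the follicle that acts on trichohyalin, made up 78.0% in M+NSPCC1, 71.7% in Model and 1.45% in Ctrl skin. Padi1 held 10.8% in M+NSPCC1, 15.6% in Model and 1.27% in Ctrl skin. The Padi4 share was 7.95% to 9.04% in M+NSPCC1, 8.80% to 12.8% in Model and 8.33% to 17.3% in Ctrl libraries, so the ranges overlapped although the level of Padi4 was lowest in Ctrl.

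Padi3 had 91.0 to 155 FPKM in M+NSPCC1, 131 to 180 FPKM in Model and 0.04 to 0.77 FPKM in Ctrl libraries. Its log2 fold change of Model over Ctrl was 8.87, and 9.96 without Ctrl 2, which had 37 counts of it. Padi2 fell by 2.43 on the log2 scale in Model against Ctrl (SE 0.56; adjusted p = 0.00151, edgeR quasi-likelihood with Benjamini-Hochberg adjustment), as skeletal muscle genes also fell, 12 of 12 by a median of -3.24; the part of muscle content in Padi2 was not tested. Of 4 deiminase genes tested, 3 passed as higher and 1 as lower in Model, and the same 3 and 1 in M+NSPCC1, against Ctrl. Of all tested genes 49.1% passed as higher and 41.4% as lower in Model, and 50.1% and 43.1% in M+NSPCC1. The family and list counts here were not tested against those shares and describe their members only.

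The Padi1 to Padi3 ratio of FPKM was 0.138 ± 0.012 in M+NSPCC1 and 0.218 ± 0.0387 in Model skin (SD, n = 4 per group), and the range in M+NSPCC1, 0.123 to 0.152, did not overlap that in Model, 0.167 to 0.254. So within the cluster the value of Padi1 in M+NSPCC1 was lower relative to Padi3 too; the difference in ratio was not tested. In Ctrl skin the lowest ratio was 0.597 and the counts of Padi3 behind it were 2 to 37 a library.

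**Figure D3:**
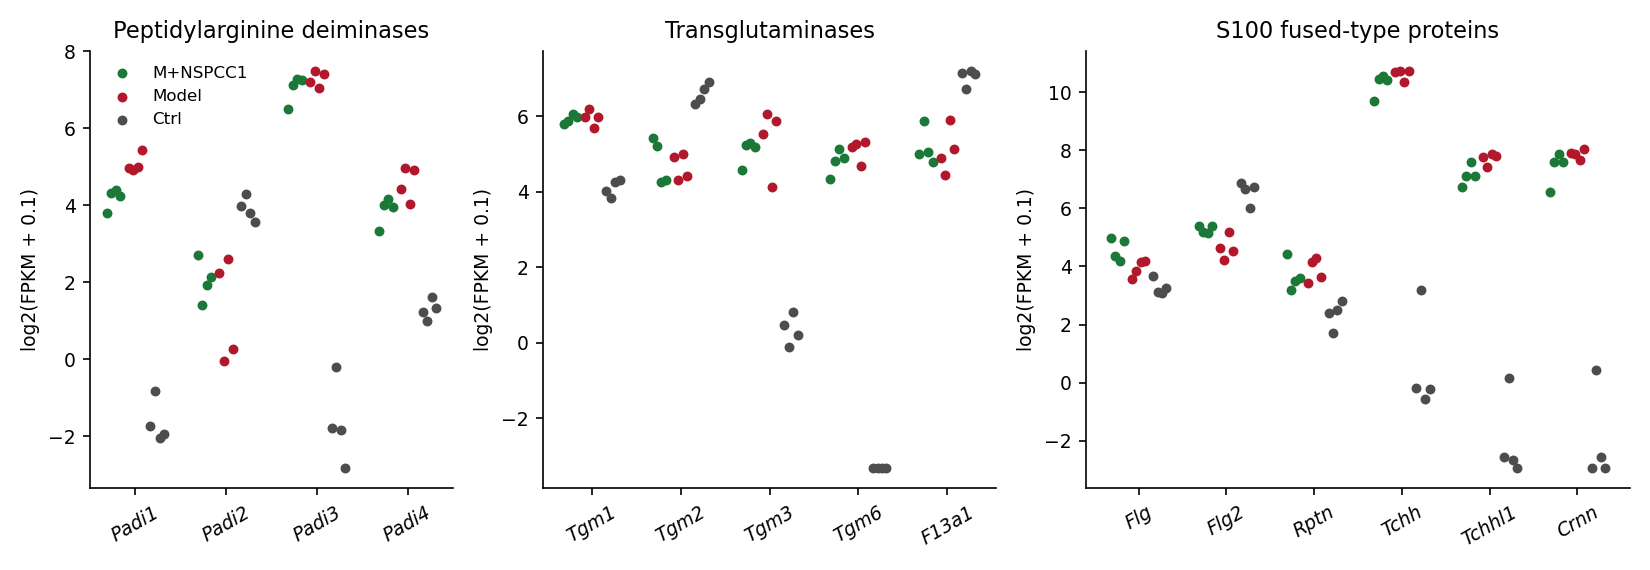
Levels of the deiminase, transglutaminase and S100 fused-type genes as log2(FPKM + 0.1) (vertical axes) in the 4 libraries of M+NSPCC1, Model and Ctrl skin, a point for each library. Padi2, Tgm2, F13a1 and Flg2 are higher in Ctrl, while Tgm6 is at the floor there and Padi1, Padi3, Tgm3, Tchh, Tchhl1 and Crnn lie below all M+NSPCC1 and Model libraries; Ctrl 2 is the high Ctrl point for Padi1, Padi3, Tchh, Tchhl1 and Crnn.

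The transglutaminases also differed in make-up between the groups. Their summed FPKM was 191 ± 21.1 in M+NSPCC1, 208 ± 15.5 in Model and 251 ± 33.7 in Ctrl libraries (SD, n = 4 per group). Tgm6 gave 14.8% of it in M+NSPCC1, 16.8% in Model and 0% in Ctrl skin. Tgm3, the neighbour of Tgm6 and an enzyme of the hair follicle and upper epidermis, gave 17.8% in M+NSPCC1, 22.3% in Model and 0.479% in Ctrl skin. Tgm1, the membrane-bound enzyme of keratinocytes, gave 26.6% to 36.1% in M+NSPCC1, 27.9% to 32.9% in Model and 6.68% to 7.01% in Ctrl libraries. Tgm2, a widely expressed tissue enzyme, gave 15.6% in M+NSPCC1, 12.7% in Model and 39.2% in Ctrl skin. F13a1, the clotting factor subunit also made by macrophages, gave 19.4% in M+NSPCC1, 18.1% in Model and 53.2% in Ctrl skin. Of 9 transglutaminase genes listed, 5 were tested. Tgm6, Tgm3 and Tgm1 rose in Model against Ctrl, the last 2 by 5.14 and 1.68 on the log2 scale, while Tgm2 fell by 2.10 and F13a1 by 2.03. The share of 3 of 5 higher is near the 49.1% of all genes. Of 12 macrophage and dendritic cell genes listed, 10 were tested. All 10 passed as lower in Model against Ctrl, beside 41.4% of all tested genes. Together they summed to 1492 to 2601 CPM in M+NSPCC1, 1336 to 3844 in Model and 6486 to 8706 in Ctrl skin. The part of these cells in F13a1 was not tested. Tgm7 was too low to be tested, with a mean of 0.295 CPM in M+NSPCC1, 0.707 in Model and 1.343 in Ctrl skin.

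In Model against Ctrl, Flg had the smallest rise of the 5 S100 fused-type genes that rose. Flg2, filaggrin-2, had 35.5 to 42.3 FPKM in M+NSPCC1, 18.7 to 36.7 FPKM in Model and 65.1 to 117 FPKM in Ctrl libraries, and fell by 2.09 on the log2 scale in Model against Ctrl (SE 0.23; adjusted p = 6.64e-06, edgeR quasi-likelihood with Benjamini-Hochberg adjustment). The Flg to Flg2 ratio of FPKM was 0.629 ± 0.105 in M+NSPCC1, 0.625 ± 0.169 in Model and 0.103 ± 0.02 in Ctrl libraries (SD, n = 4 per group). In M+NSPCC1 over Model both stood higher, at 0.64 and 0.55 on the log2 scale, and neither passed. The ratio of Flg to Krt10 was 0.0439 ± 0.00744 in M+NSPCC1, 0.0356 ± 0.0101 in Model and 0.00673 ± 0.000955 in Ctrl skin. Tchh, which encodes trichohyalin, averaged 1270 ± 300.2 FPKM in M+NSPCC1, 1589 ± 186 FPKM in Model and 2.80 ± 4.19 FPKM in Ctrl skin. Its log2 fold change of Model over Ctrl was 8.96, and 10.96 without Ctrl 2; likewise Tchhl1 was at 9.30 with that library and 11.67 without it, and Crnn, cornulin, at 9.22 and 12.04. Rptn, repetin, rose by 1.36. Of the 6 S100 fused-type genes tested, 5 rose and 1 fell in Model against Ctrl, with a median of 5.16, beside 49.1% and 41.4% of all tested genes and a median of 0.26. DESeq2 called 4 of them: Flg missed, at an adjusted p of 0.181, and Tchh was given no adjusted p, at a log2 fold change of 8.79.

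**Figure D4:**
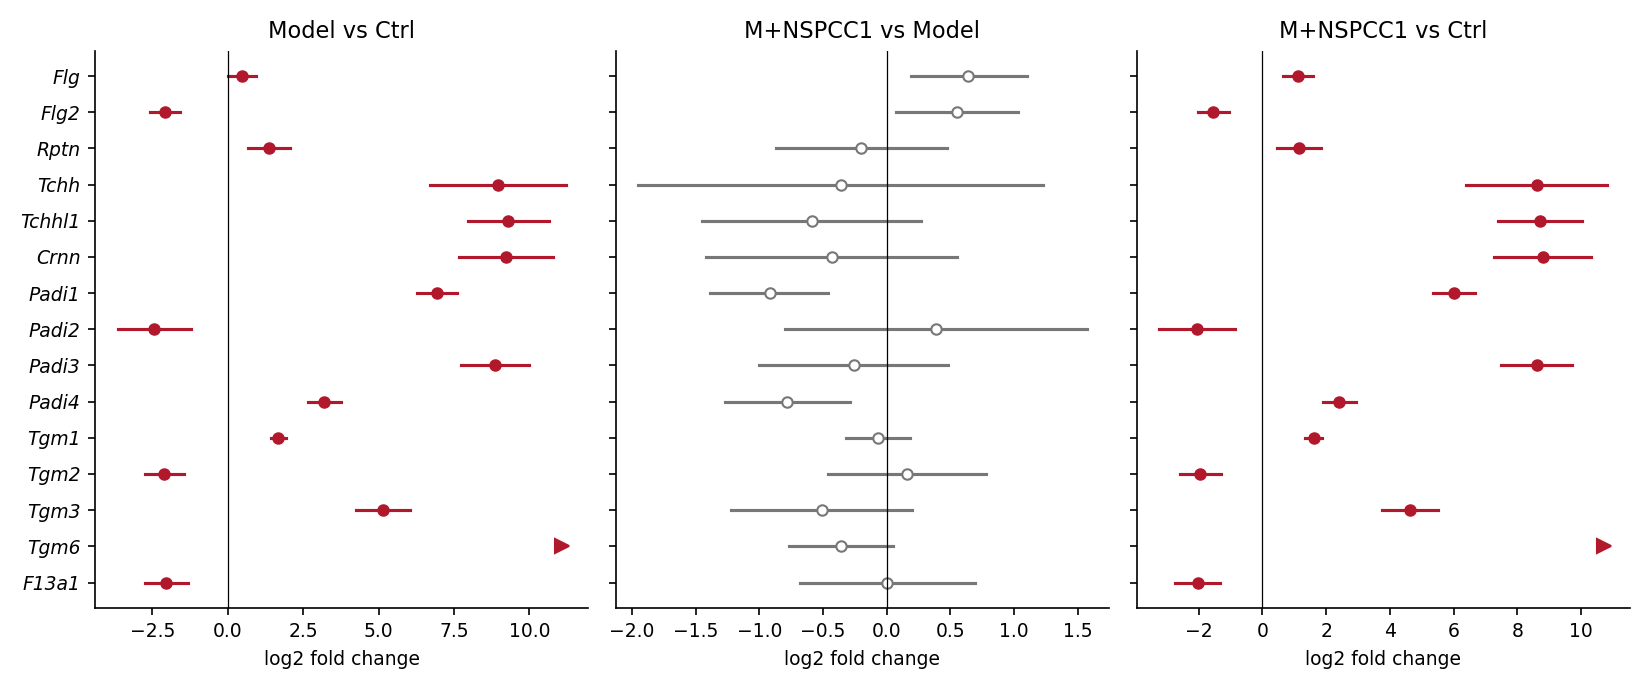
Log2 fold changes (horizontal axes, of different length in each panel) of the S100 fused-type, deiminase and transglutaminase genes, with 95% intervals from edgeR; filled red points passed an adjusted p of 0.05, open grey points did not, and arrowheads are lower bounds for Tgm6. Flg is the smallest rise among the called genes in Model over Ctrl, at 0.48, and no gene passed in M+NSPCC1 over Model.

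Of 17 listed enzymes that cut or break down filaggrin, 10 were tested. In Model against Ctrl 4 of the 10 rose and 4 fell, with a median of 0.42 beside 0.26 for all genes. Those shares were near or below the 49.1% and 41.4% of all tested genes. The proteases Klk14, St14 (matriptase) and Prss8 (prostasin) rose by 3.28, 2.92 and 1.79 on the log2 scale. Klk14 was near 0, with 3.65 to 49 counts a library in Model and 1 to 3 in Ctrl. Hal, which turns histidine from filaggrin into urocanic acid, fell by 1.65, and Klk5 and the cathepsin Ctsh by 0.92 and 0.72. Casp14, a caspase of filaggrin breakdown, was at 148 ± 53.8 CPM in M+NSPCC1, 97.7 ± 25.5 in Model and 75.8 ± 13.1 in Ctrl libraries (SD, n = 4 per group); it passed in M+NSPCC1 over Ctrl, at 0.97 (adjusted p = 0.00309, edgeR quasi-likelihood with Benjamini-Hochberg adjustment), and in neither other comparison. Krt2 passed as higher in Model against Ctrl from no count in Ctrl, and Krt77, Krt80 and Krt10 passed as lower, at -2.63, -2.45 and -1.82. The Krt2 value describes 1 transcript, at 34 to 150 estimated counts a library in Model. Its count was not whole in 3 libraries, so other reads of the gene are not covered. Of 9 suprabasal keratins listed, 5 were tested. Of these 5, 1 rose and 4 fell, beside 49.1% and 41.4% of all tested genes.

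Cornified envelope genes encode proteins that transglutaminases join. Of 52 listed, only 11 were in the files and tested, so the counts do not describe the whole list. Of the 11 tested, 7 rose and 2 fell in Model against Ctrl (median 1.16, beside 0.26 for all genes). Of all tested genes 49.1% rose and 41.4% fell. Lce6a, a late envelope protein, and Sprr1a, a small proline-rich protein, rose by 3.78 and 2.87, while Lce1m and Kprp fell by 2.37 and 1.10. Of 14 inner root sheath and medulla genes all 14 rose (median 8.92), a list that includes Tchh, Padi3 and Tgm3; Krt73, a keratin of the inner root sheath, rose by 9.52, and by 12.52 without Ctrl 2. Of 27 barrier lipid genes listed, 8 were tested. Lipm, Pnpla1 and Cers3 were among 5 that rose and Lipn, Elovl1 and Aloxe3 were the 3 that fell, shares near those of all tested genes. Of 20 transcription factors of epidermal differentiation listed, 14 were tested. Of these 14, 12 rose, among them Hoxc13, a hair follicle factor, by 5.88, and Ovol1 by 2.44, and Pparg fell by 1.58. Cell division genes rose in 12 of 12 (median 2.71). None of the members of any of the 15 lists passed in M+NSPCC1 over Model by edgeR.

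**Figure D5:**
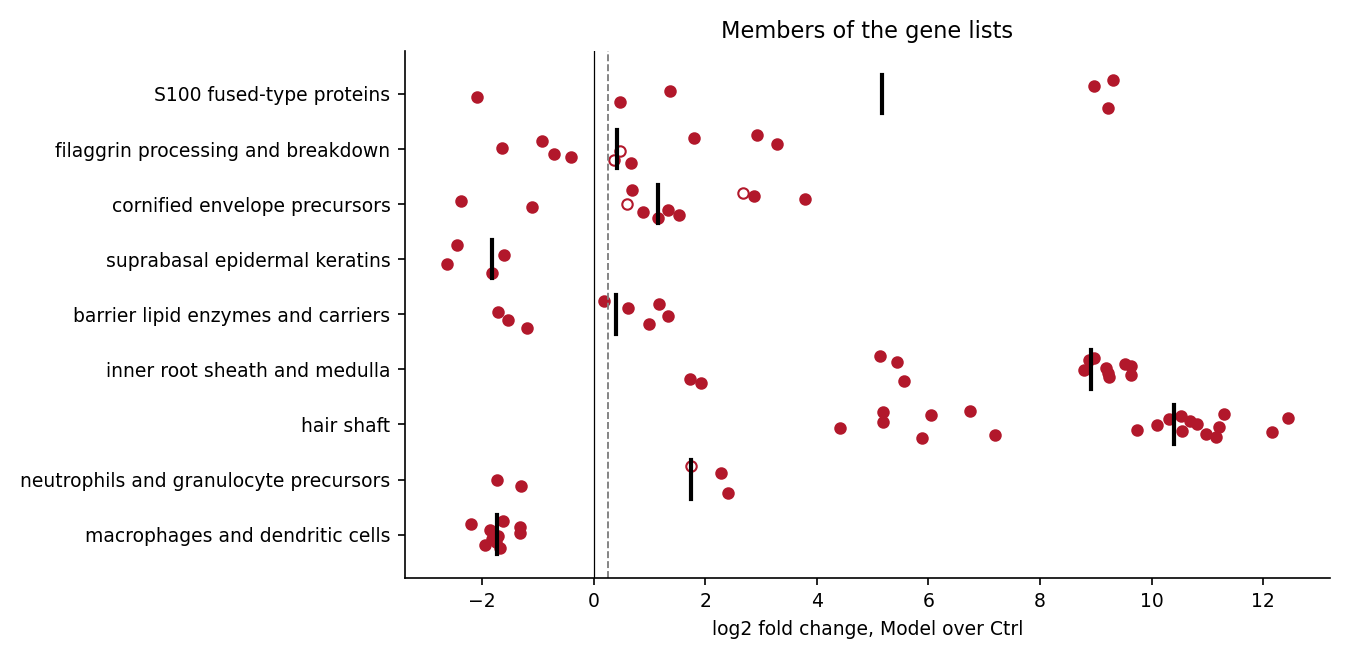
Log2 fold change of Model over Ctrl (horizontal axis) for members of 9 gene lists, a point for each gene, filled where it passed an adjusted p of 0.05 by edgeR; black bars are medians over all tested members, and the dashed line is the median of all genes, 0.26. Genes with no count in a whole group, Krt2 among them, are left off. All tested inner root sheath and hair shaft genes lie to the right, and all macrophage genes to the left.

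Genes with the pattern most like each of the 4 were found by the root mean square difference of log2 CPM from its mean over the 12 libraries, among 7542 genes. Nearest to Flg were Iah1 (difference 0.234), Casp14 (0.255) and Lce1g (0.258), the last a late envelope gene of the same chromosome. Iah1 was near the floor, at a mean of 2.07 CPM in M+NSPCC1, 1.24 in Model and 0.818 in Ctrl skin. Nearest to Padi1 were AU018091 (0.308), Gm11555 (0.404) and Krtap4-8 (0.413), a keratin-associated protein gene. Nearest to Padi4 were Tent5b (0.258), Pla2g2e (0.271) and AI661453 (0.302); Tent5b had 160 ± 22.3 CPM in M+NSPCC1, 248 ± 16.5 in Model and 32.2 ± 2.73 in Ctrl skin. Nearest to Tgm6 were Gm2696 (0.293), Gm19402 (0.310) and Krtap10-4 (0.321), all on chromosome 10 and, like Tgm6, with no count in Ctrl. The order was chosen by the same 12 libraries, so it describes them only.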

How the data were processed

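Total RNA from mouse skin was made into mRNA libraries, 4 in each of 3 groups taken from the sample titles. Per the submitters' processing notes, HISAT2 2.2.1, RSEM 1.3.1, DESeq2 1.34.0 and mm10 were used, with no role given. The authors deposited an estimated count and an FPKM value for each of 10720 transcripts per library; how those were selected was not given in the sources used here. Estimated counts were summed over 7902 genes by gene ID and rounded. Of these IDs, 7881 matched the reference annotation, and 7638 genes passed filterByExpr.

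Genes were tested with edgeR 4.0.16 (R 4.3.3) by glmQLFit and glmQLFTest on all 12 libraries, with TMM scaling and Benjamini-Hochberg adjustment at 0.05 over all genes tested. DESeq2 1.42.0 and limma 3.58.1, on log2(FPKM + 1) and log2(FPKM + 0.1), served as alternatives. The fits by edgeR, DESeq2 and limma were tried on simulated counts, and the other steps were not. The simulation changed few genes, equally in both directions. It therefore does not cover a comparison in which most genes are called, as in those against Ctrl. The genes and lists were chosen with earlier results of these data known. Named genes were the 4 members, all family genes, up to 3 members per direction of each list with the largest change that passed, and the 3 genes most like each member; the text names those that describe each list. Totals of 9717338 to 10952623 counts per library limit the precision of genes near 0. Promoters were matched by symbol for 4 of the 4 genes.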

Additional observations from a re-analysis of the deposited data

Results flagged for a closer look

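In 47 groups of 4 libraries, over 16 family genes, the highest or lowest library was set against the rest, and 5 groups had a library far from the other 3; chance gives about 1 in 20. In Ctrl skin, 4 of these were the same library, Ctrl 2. It had 3.09 CPM of Padi1 (the others 0.966 to 1.33), 96.6 CPM of Tchh (6.12 to 8.18), 3.42 CPM of Tchhl1 (0.108 to 0.221) and 3.98 CPM of Crnn (0.108 to 0.215). In M+NSPCC1 skin, library 4 had 0.355 CPM of Tgm7, and the other libraries 0.273 to 0.278, on 2.54 to 4.07 estimated counts in all 4.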

How the results depend on the processing

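Against Ctrl, Padi1, Padi4 and Tgm6 kept their direction and passed under every alternative run, in Model and in M+NSPCC1. Flg in Model against Ctrl did not: the log2 fold change was 0.31 with DESeq2's size factors in edgeR (adjusted p = 0.187), 0.31 with DESeq2 (adjusted p = 0.181) and 0.48 against a 2-fold threshold (adjusted p = 1), and it ran from 0.39 to 0.63 when single libraries were left out (adjusted p 0.0155 to 0.113), missing without Ctrl 2, Ctrl 3, Ctrl 4, Model 3, Model 4 or M+NSPCC1 4. Flg in M+NSPCC1 against Ctrl was 1.12 against a 2-fold threshold (adjusted p = 0.235). In M+NSPCC1 over Model, Padi1 passed with DESeq2 at -0.91 (adjusted p = 0.0111), and Tgm6 was 0.17 when its first transcript was tested alone. Genes called there numbered 73 with DESeq2, 2 with only the 8 libraries compared, and 0 to 4 with single libraries left out (4 without M+NSPCC1 1, 2 without Model 3), and list members called numbered 2 with DESeq2. A 2-fold threshold left 2859 genes called in Model and 2884 in M+NSPCC1 against Ctrl, in place of 6913 and 7117; list counts in Model fell to 4 of 10 for filaggrin processing, 5 of 11 for the envelope, 2 of 8 for barrier lipids and 1 of 5 for neutrophils. DESeq2 called 8 of 14 inner root sheath genes against Ctrl and gave the other 6 no adjusted p, at log2 fold changes of 8.79 to 9.46 in Model. The causes were not tested. Of 118 called values of other named genes, 25 lost the call somewhere, 21 of them only against the 2-fold threshold, and 0 reversed.

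The replicate numbers are shared by the groups, but deviations of same-numbered libraries correlated at -0.17 to 0.128, so they were not taken as pairs. With the replicate block 6823 genes were called in Model against Ctrl, 0 in M+NSPCC1 over Model and 7027 in M+NSPCC1 against Ctrl. Flg in Model against Ctrl was 0.50 (adjusted p = 0.0482) and Padi1 in M+NSPCC1 over Model -0.94 (adjusted p = 0.509) under the block. In 4 of 12 cases a library correlated best with its own number. Median log2 fold changes of all genes in Model against Ctrl were 0.26 with TMM, 0.08 with DESeq2's size factors and 0.43 with whole-library depth.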
